A study of Mus musculus with 24 samples.

Results

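Interferon-stimulated genes (ISGs) are genes that cells switch on in response to interferon. The set described here was fixed by name as 35 mouse ISGs, chosen with earlier results of these data known. Of these, 34 are listed among the 21965 genes of the count table, and Mx2 is not analysed here. All 34 passed the limit of 10 counts summed over the libraries and were tested among 17167 genes in all. The set holds the transcription factors Irf1, Irf7, Irf8, Irf9 and Stat2, the nucleic acid sensors or their regulators Ifih1, Dhx58 and Zbp1, and effector genes of the Ifit, Ifi, Oas, Gbp and other families.

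Type I interferons (alpha and beta) and type II interferon (gamma) bind cell surface receptors that activate Janus kinases and STAT proteins. STAT proteins join IRF9 in the complex ISGF3, which binds the interferon-stimulated response element (ISRE), whereas STAT dimers bind the gamma-activated site (GAS). The induced proteins restrict viruses, sense nucleic acids or feed back on the pathway, and microglia, infiltrating myeloid cells, astrocytes and oligodendrocytes (OLs) are all known to express them.

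The samples came from OL-Ribotag mice, in which a tamoxifen-activated Cre of mature OLs switches on HA-tagged RPL22, so that ribosomes of these cells can be pulled down with an anti-HA antibody. All groups, naive included, carried both alleles and received tamoxifen, and this Cre is also known to be active in Schwann cells. The mice, female and 10 to 12 weeks old per the labels, received a contusion of 50 kdyn at T9 (spinal cord injury, SCI), and 5 mm of cord around the lesion was taken at day post-injury (dpi) 2, 10 or 42, with the naive tissue collected alongside dpi 42. The study's methods give a younger age at injury than the labels, and by the time of collection the naive mice were older than those of dpi 2 and 10. Tissue of 2 mice was pooled, and each of the 3 pools per condition gave a library of total RNA (the input lysate) and a library of HA-bound RNA (the OL translatome), which makes 24 libraries in 8 groups of n = 3. Levels are in CPM, the counts scaled by the TMM-adjusted total of each library.

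Depth was similar throughout, with 25840064 to 29049911 counts per total RNA library and 29075174 to 32987820 per OL library on the genes tested. A level of 3 counts, used as the floor for fold changes, corresponded to 0.0840 to 0.0984 CPM in total RNA and 0.105 to 0.127 CPM in OL libraries, and it covers counting error only. Defining markers of mature OLs (8 genes) summed to 96315 to 157866 CPM in OL libraries against 19318 to 27881 CPM in total RNA, so every library went with the kind given by its column name, including 2 libraries of dpi 42 whose labels name opposite kinds. The 6 astrocyte markers summed to 2135 to 4119 CPM in 7 OL libraries and to 7527 to 14575 CPM in the other 5 (naive 3, dpi 2 library 3, dpi 10 library 2, dpi 42 libraries 1 and 2). The naive OL library 3 also held 636 CPM of Schwann cell markers against at most 1.89 CPM in the other naive OL libraries, and both libraries of dpi 2 tissue pool 2 held Y-linked counts although the mice are labelled female.

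The 250 bases before the start site are shown for 4 members so that the recognition letters of the interferon factors can be seen. Oas1a and Bst2, which hold ISRE letters, are among the 3 members with the largest fitted and separated OL increase at dpi 2. For the third, Zbp1, no promoter sequence was at hand. Irf8 stands for strongly risen members without ISRE letters, and Irf1 was added after its values were seen. The sequences are those of RefSeq on GRCm38.p6, written 5′ to 3′ on the strand of the gene. Capitals mark the ISRE letters (GAAA, any 2 bases, GAAA, on either strand) in Oas1a and Bst2 and the GAS letters (TTC, any 3 bases, GAA, the same on both strands) in Irf8 and Irf1.
Oas1a, chr5:120907526-120907775, minus strand: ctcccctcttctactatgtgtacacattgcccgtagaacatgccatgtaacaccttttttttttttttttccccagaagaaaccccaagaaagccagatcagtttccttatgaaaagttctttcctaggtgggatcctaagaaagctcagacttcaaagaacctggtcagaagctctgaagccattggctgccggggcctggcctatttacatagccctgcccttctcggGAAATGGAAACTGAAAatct
Bst2, chr8:71537473-71537722, minus strand: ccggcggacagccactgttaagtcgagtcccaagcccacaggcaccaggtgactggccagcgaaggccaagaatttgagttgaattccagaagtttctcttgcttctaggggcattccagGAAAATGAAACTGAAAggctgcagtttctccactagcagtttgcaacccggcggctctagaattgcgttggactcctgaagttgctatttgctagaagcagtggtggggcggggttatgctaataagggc
Irf8, chr8:120736108-120736357, plus strand: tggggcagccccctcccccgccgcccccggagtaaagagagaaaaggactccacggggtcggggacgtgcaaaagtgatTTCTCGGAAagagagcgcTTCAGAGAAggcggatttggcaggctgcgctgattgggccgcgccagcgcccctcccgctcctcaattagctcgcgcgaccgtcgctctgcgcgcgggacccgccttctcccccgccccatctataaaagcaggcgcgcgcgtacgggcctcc
Irf1, chr11:53769764-53770013, plus strand: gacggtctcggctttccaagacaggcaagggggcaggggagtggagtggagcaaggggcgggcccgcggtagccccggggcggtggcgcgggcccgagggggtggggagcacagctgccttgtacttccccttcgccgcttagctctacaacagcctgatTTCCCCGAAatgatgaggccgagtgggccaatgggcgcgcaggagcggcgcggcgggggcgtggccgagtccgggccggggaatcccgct
Counted from the start site, the overlapping ISRE matches lay at -20 to -11 and -14 to -5 in Oas1a and at -130 to -121 and -124 to -115 in Bst2. A GAS match at -136 to -128 in Bst2 overlaps the first of its ISRE matches. Oas1a also holds a GAS match at -98 to -90, which is left in small letters. The GAS matches lay at -171 to -163 and -153 to -145 in Irf8 and at -90 to -82 in Irf1. Windows of 300 bases (250 before and 50 after the start site) were at hand for 25 of the 34 members. The ISRE letters stood in the windows of 12 of the 25 members (48%), against 3.99% of all 27025 genes with a window, and the GAS letters in 9 of 25 (36%), against 9.55%. The members with ISRE letters were Ifit1, Ifit3, Ifitm3, Isg15, Stat2, Oas1a, Bst2, Rsad2, Ifih1, Gbp2, Gbp3 and Trim30a. A match describes letters in this window and is not a measured binding site.

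Most ISGs rose after SCI, in the OL translatome as well as in total RNA, and most of them were highest at dpi 10. A member was called when its log2 fold change (Log2FC) passed 1 with an adjusted p (q) under 0.05 by edgeR's quasi-likelihood test over all genes. In OL libraries 19, 27 and 17 of 34 members were called higher than in naive tissue at dpi 2, 10 and 42, where 10.2%, 6.82% and 8.54% of all genes were. No member was called lower in OL by edgeR (6.85%, 1.26% and 4.08% of all genes), nor by DESeq2, and 1, 0 and 1 lay lower at an unadjusted p under 0.05, namely Ifit2. In total RNA 23, 29 and 23 members were called higher (10.0%, 9.20% and 6.66% of all genes), and only Cmpk2 was called lower, at dpi 2 (6.33%, 3.07% and 0.798% of all genes at the 3 times). The median Log2FC over the members was 1.81, 2.87 and 1.76 in OL, or 1.61, 2.48 and 1.60 with the 5 members at the floor in naive OL set to their lower bound, beside 0.00 for all genes. In total RNA it was 2.04, 2.88 and 2.09, beside -0.10, -0.10 and -0.08 for all genes. In these bulk libraries fewer or more cells of a type and less or more RNA per cell cannot be told apart.

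**Figure D1:**
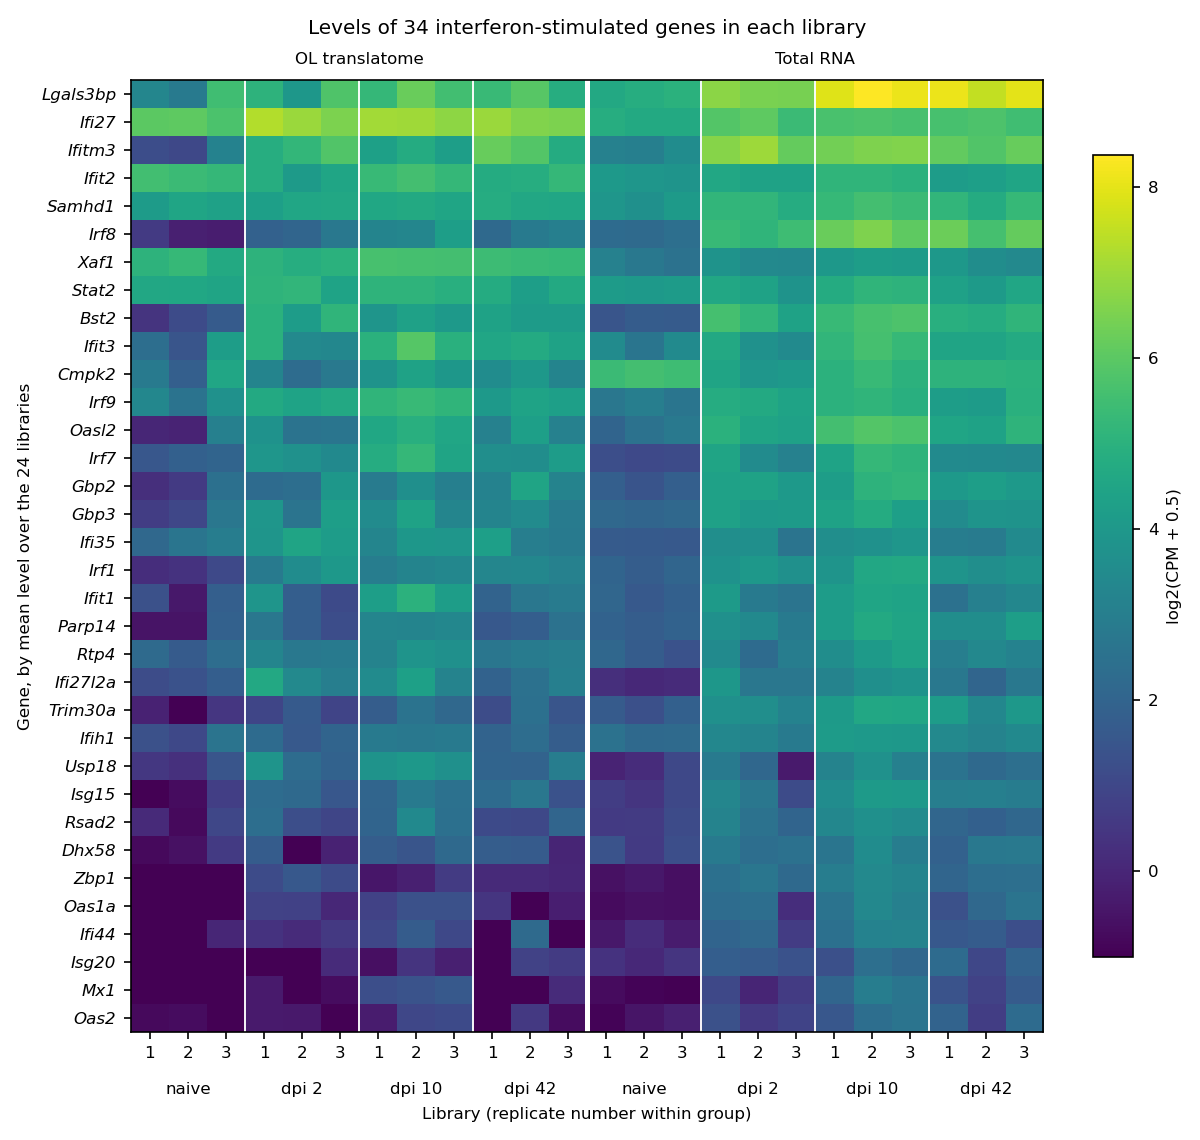
Level of each of the 34 ISGs (one line per gene, ordered by mean level) in each of the 24 libraries, grouped by condition for OL and total RNA, as colour on a log2(CPM + 0.5) scale. Naive libraries are lowest for most genes. Library 3 of naive OL was the highest of its group for 23 of the 29 members above the floor there, against 33.3% of all genes above it.

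Separation of the libraries showed the same breadth. All 3 SCI libraries lay above all 3 naive libraries for 16, 31 and 21 members in OL (18.3%, 15.8% and 17.2% of all genes) and for 30, 33 and 32 members in total RNA (24.7%, 24.5% and 20.2%). They lay below for Ifit2 in OL at dpi 2 and 42 (20.6% and 19.2% of all genes, and 15.4% at dpi 10) and for Cmpk2 in total RNA at all 3 times (35.8%, 36.6% and 30.8%). In OL 14 members were called higher at all 3 times (Bst2, Gbp2, Gbp3, Ifi27l2a, Ifitm3, Irf1, Irf7, Irf8, Irf9, Isg15, Isg20, Oas1a, Trim30a and Zbp1), and 7 at none (Cmpk2, Ifi44, Ifit2, Lgals3bp, Samhd1, Stat2 and Xaf1). In total RNA 21 members were called at all 3 times and 4 at none (Cmpk2, Dhx58, Isg20 and Stat2). The shares of all genes called at all 3 times or at none were not counted, so these counts have no background beside them.

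The counts in OL moved with single libraries. The lowest counts were 14 at dpi 2 (without naive OL library 1 or 2), 20 at dpi 10 (without dpi 10 OL library 2) and 11 at dpi 42 (without naive OL library 1 or 2). Without library 3 of naive OL, 22, 27 and 25 members were called higher in OL, and without all 5 OL libraries high in astrocyte markers 25, 29 and 22, where the lone OL library left at dpi 42 is assumed to vary like the others. Without dpi 2 tissue pool 2 the counts were 20, 28 and 18. With the compared groups fitted alone, 12, 15 and 5 members were called higher in OL and 29, 33 and 31 in total RNA.

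Summed markers of myeloid cells and of Schwann cells also mostly lay higher after SCI than in naive tissue. The Schwann cell sums ranged highest at dpi 42 in total RNA (271 to 665 CPM), whereas in OL the highest sum lay at dpi 10 (876 to 1549 CPM). The 12 microglia and macrophage markers, none of them at 0 in a whole OL group, summed to 26.4 to 37.5 CPM in naive OL libraries. After SCI they summed to 91.7 to 139 at dpi 2, 213 to 281 at dpi 10 and 162 to 269 at dpi 42. In OL 10, 11 and 10 of them were called higher (10.2%, 6.82% and 8.54% of all genes). In total RNA they summed to 318 to 386 CPM in naive tissue and to 1650 to 1995, 3261 to 4089 and 2227 to 3106 CPM after SCI. The 6 monocyte markers summed to at most 0.497 CPM in naive OL libraries and to 30.7 to 45.7, 108 to 137 and 78.8 to 130 CPM after SCI, mostly Lyz2, with Ly6c2 at 0 at dpi 2 and 42. The 7 T and NK cell markers summed to at most 0.837 CPM in any OL library. The microglia and macrophage markers were all called OL depleted in every condition. Their medians were -3.66, -3.88, -3.78 and -3.75 (Log2FC of OL against total RNA, in naive tissue and at dpi 2, 10 and 42). The medians of the ISGs were -0.64, -0.88, -1.15 and -0.60, beside -0.27, -0.19, -0.22 and -0.18 for all genes. The 6 Schwann cell markers, whose cells the Cre can also tag, summed to 1.82, 1.89 and 636 CPM in naive OL libraries. After SCI they summed to 227 to 688 CPM at dpi 2, 876 to 1549 at dpi 10 and 1208 to 1404 at dpi 42. The range of dpi 2 includes the naive value of 636 CPM. In OL 2, 3 and 2 of these markers were called higher (10.2%, 6.82% and 8.54% of all genes). In total RNA they summed to 2.74 to 176 CPM in naive tissue and to 63.1 to 258, 178 to 372 and 271 to 665 CPM after SCI. The parts of myeloid and of Schwann cell RNA in the OL levels of the ISGs were not tested.

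**Figure D2:**
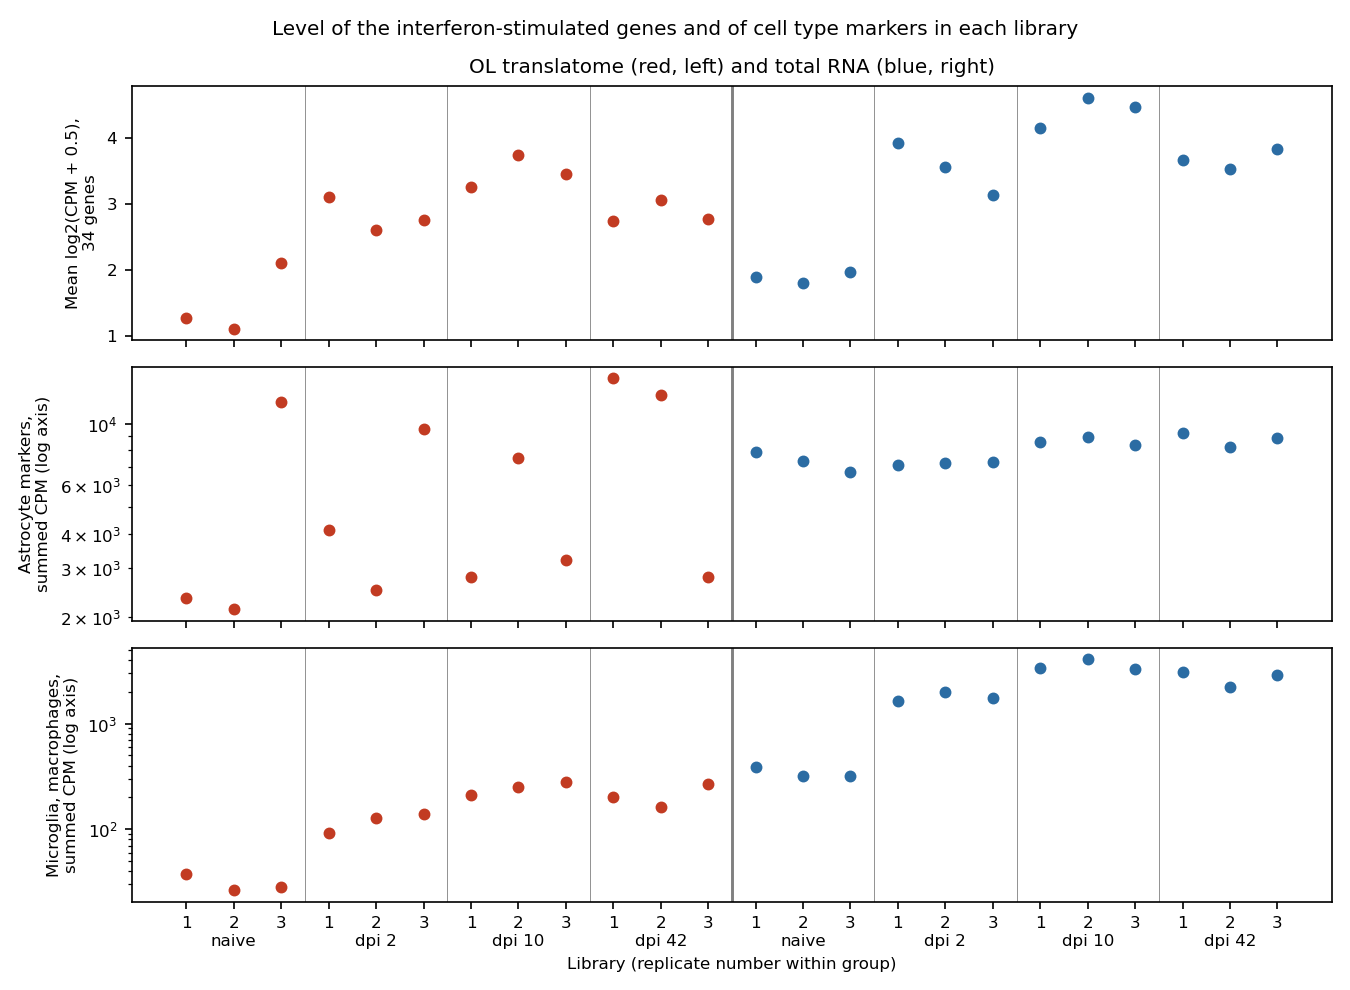
One point per library for the mean log2(CPM + 0.5) of the 34 ISGs, the summed CPM of 6 astrocyte markers (log axis) and the summed CPM of 12 microglia and macrophage markers (log axis). The ISG mean ran from 1.11 to 2.10 in naive OL libraries and from 2.604 to 3.73 in OL after SCI, and the naive OL library with the mean of 2.10 is the one with 11936 CPM of astrocyte markers.

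Among the transcription factors the 4 IRF genes were called higher at every time in both kinds of library, and Stat2 at none. Irf7, which amplifies type I interferon production, read 2.44, 3.13 and 3.60 CPM in naive OL libraries, 14.6, 12.96 and 10.5 at dpi 2, 27.6, 37.7 and 21.9 at dpi 10 and 12.02, 11.7 and 17.8 at dpi 42. No SCI library overlapped the naive ones, and the libraries of dpi 10 were the highest. The Log2FC was 2.05 ± 0.31, 3.25 ± 0.32 and 2.17 ± 0.31 in OL and 2.99, 4.15 and 2.59 in total RNA, with q of at most 2.19e-05 in OL. Irf7 shares 45 bases of annotated exon with Phrf1 on the opposite strand.

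Irf8, a factor of myeloid cell development, was mostly found in total RNA. Total RNA libraries read 4.33, 4.26 and 4.82 CPM in naive tissue, 39.1, 34.3 and 43.8 at dpi 2, 74.7, 92.7 and 65.7 at dpi 10 and 76.8, 47.9 and 70.7 at dpi 42. OL libraries read 1.01, 0.381 and 0.344 CPM in naive tissue, 3.21, 3.65 and 6.31 at dpi 2, 8.78, 9.47 and 18.5 at dpi 10 and 4.05, 6.57 and 7.83 at dpi 42. No SCI library overlapped a naive one in either kind, with a Log2FC of 2.93 ± 0.41, 4.41 ± 0.40 and 3.41 ± 0.40 in OL and of 3.13, 4.12 and 3.86 in total RNA. Irf8 was OL depleted in every condition, with a Log2FC of OL against total RNA of -2.95, -3.15, -2.67 and -3.41, beside which the marker medians of microglia and macrophages are given above.

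Irf1, a factor induced by interferon gamma, read 0.672, 0.804 and 1.61 CPM in naive OL libraries, 6.65, 11.3 and 15.6 at dpi 2, 7.34, 8.90 and 9.67 at dpi 10 and 9.30, 9.52 and 8.18 at dpi 42. In total RNA it read 3.54, 2.90 and 3.71 CPM in naive tissue and 13.3, 15.4 and 12.6 at dpi 2. All SCI libraries were above the naive ones in both kinds. The Log2FC was 3.43 ± 0.34, 3.06 ± 0.33 and 3.12 ± 0.33 in OL and 2.03, 2.63 and 1.97 in total RNA. Its exons share 135 bases (3.40%) with Gm17334 on the opposite strand, and the strand setting of the counting is not given in the sources used here.

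Irf9, the DNA-binding subunit of ISGF3, read 9.66, 5.42 and 12.8 CPM in naive OL libraries, 25.7, 21.2 and 24.9 at dpi 2, 34.2, 39.3 and 34.4 at dpi 10 and 16.3, 21.3 and 19.1 at dpi 42. Every SCI library was above the naive range. The Log2FC was 1.36 ± 0.24, 1.95 ± 0.25 and 1.02 ± 0.24 in OL and 1.93, 2.31 and 1.78 in total RNA. The OL value of dpi 42 sits at the limit. It ran from 0.69 (without naive OL library 2) to 1.27 with single libraries left out and was under 1 in 10 of 24 such fits. These 10 include the fits without each OL library of dpi 2 and 10, which are outside this comparison of Irf9 (0.97 each). Its partner in ISGF3, Stat2, read 24.1, 23.6 and 21.96 CPM in naive OL libraries and 34.1, 33.9 and 29.5 at dpi 10. Its Log2FC was 0.36, 0.48 and 0.02 in OL and 0.20, 0.90 and 0.23 in total RNA, where q was 0.00170 at dpi 10 but the limit of 1 was not passed (1.02 and a call when any OL library was left out).

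The largest fitted increases belonged to members that were nearly absent from naive libraries. In OL only lower bounds hold for members at 0 in naive tissue. Some of these bounds lay under the increase of detected members such as Irf8. Zbp1, a sensor of Z-form nucleic acids that can trigger necroptosis, had 0 counts in all 3 naive OL libraries and read 1.70, 2.47 and 1.68 CPM at dpi 2, 0.233, 0.380 and 1.03 at dpi 10 and 0.594, 0.597 and 0.509 at dpi 42. Against the floor it was at least 15.9-fold, 4.46-fold and 4.62-fold higher in OL. In total RNA it read 0.164, 0.258 and 0.158 CPM in naive tissue, 4.95, 5.83 and 4.08 at dpi 2 and 7.39, 10.1 and 8.98 at dpi 10, with a Log2FC of 4.65 ± 0.52, 5.48 ± 0.53 and 4.49 ± 0.51 at the 3 times. Its mean was highest at dpi 2 in OL and at dpi 10 in total RNA. With the compared groups fitted alone its OL calls of dpi 10 (q = 0.0641) and dpi 42 (q = 0.0516) were lost.

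Oas1a, which makes the second messenger that activates RNase L, was likewise at 0 in the naive OL libraries. It read 1.29, 1.26 and 0.536 CPM at dpi 2, 1.32, 1.98 and 2.02 at dpi 10 and 0.874, 0 and 0.352 at dpi 42, at least 8.37-fold, 14.5-fold and 3.33-fold above the floor. At dpi 42 its OL libraries overlapped the naive ones. In total RNA the Log2FC was 4.52 ± 0.95, 5.75 ± 0.98 and 4.75 ± 0.95. Of the 50-base stretches of its transcripts 57.6% also occur in Oas1g, so its counts are uncertain.

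Mx1, an antiviral dynamin-like GTPase, was at 0 in the naive OL libraries and read 0.302, 0 and 0.115 CPM at dpi 2, 1.86, 2.13 and 2.55 at dpi 10 and 0, 0 and 0.626 at dpi 42. Its OL libraries separated from the naive ones at dpi 10, by at least 17.8-fold, and its call at dpi 42 rests on 1 library above 0. In total RNA, where naive libraries read at most 0.0984 CPM, it was at least 10.5-fold, 58.4-fold and 21.4-fold higher, and the call of dpi 2 was lost without naive total RNA library 3.

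Bst2 (tetherin, which holds budding virions at the cell surface) read 0.840, 1.73 and 2.72 CPM in naive OL libraries, 31.0, 17.54 and 34.2 at dpi 2, 14.2, 20.2 and 15.9 at dpi 10 and 20.5, 17.3 and 17.02 at dpi 42. The lowest SCI library was far above the highest naive one. The Log2FC was 3.96 ± 0.35, 3.24 ± 0.35 and 3.36 ± 0.35 in OL and 3.74, 4.19 and 3.55 in total RNA. Ifitm3, which blocks viral entry, read 1.85, 1.52 and 8.49 CPM in naive OL libraries, 27.8, 36.4 and 56.3 at dpi 2, 19.7, 26.8 and 18.4 at dpi 10 and 72.3, 57.6 and 26.8 at dpi 42. Its highest naive library is library 3, and its highest SCI libraries are libraries 1 and 2 of dpi 42, all of them high in astrocyte markers, whose part was not tested. The Log2FC was 3.33 ± 0.48, 2.44 ± 0.47 and 3.71 ± 0.48 in OL and 3.46, 3.33 and 2.86 in total RNA.

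**Figure D3:**
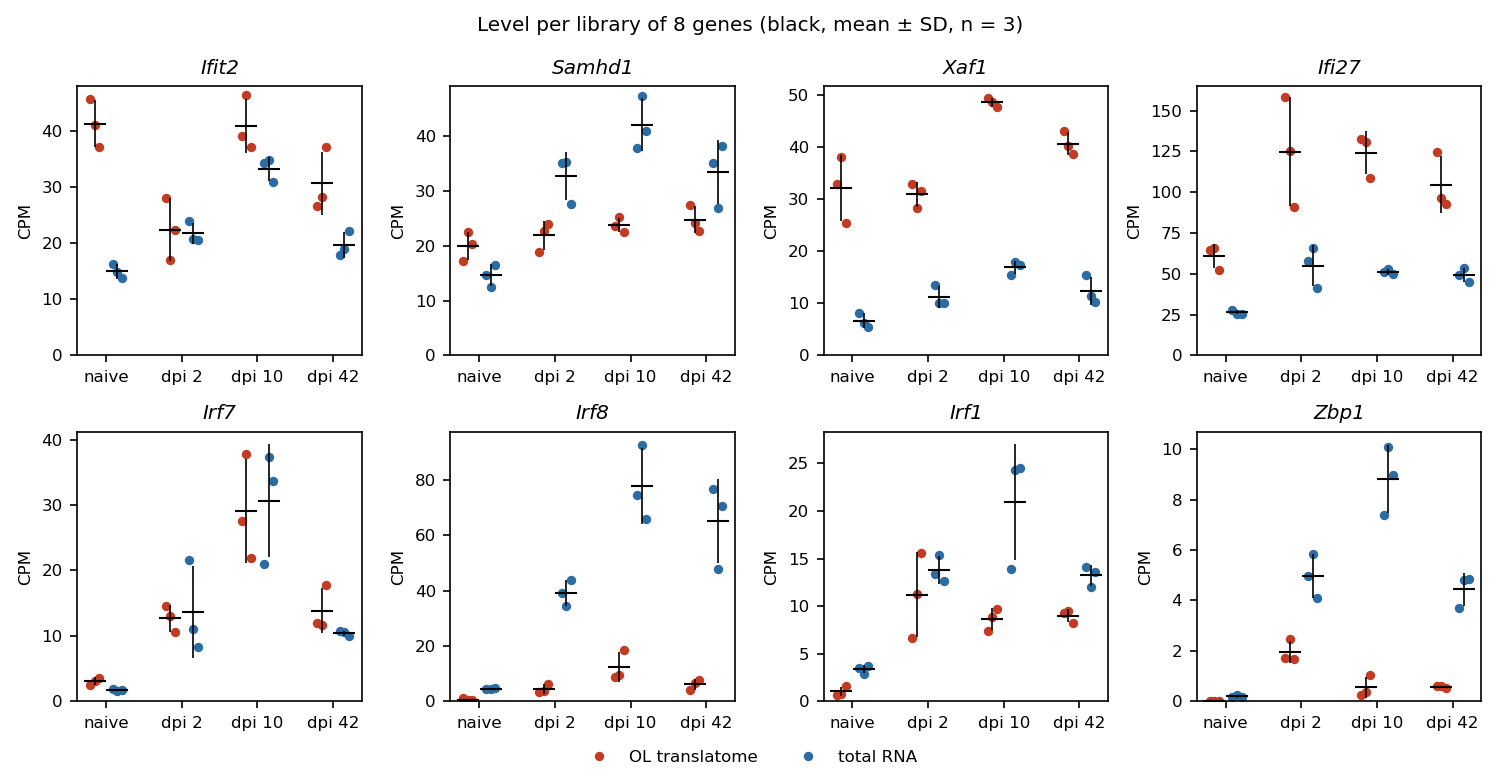
CPM of 8 ISGs in each library (points) with the mean and SD of each group (n = 3), for OL and total RNA in naive tissue and at dpi 2, 10 and 42. Ifit2 is lowest in OL at dpi 2, Samhd1 stays between 17.3 and 27.5 CPM in all OL libraries while total RNA rises, and Irf7 is highest at dpi 10 in both.

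The other members are given by family. Of the Ifit genes, whose proteins bind foreign RNA, Ifit1 was called higher in OL at dpi 2 and 10 (Log2FC 1.80 and 3.66) and Ifit3 at dpi 10 and 42 (2.28 and 1.47), while their chromosome 19 neighbour Ifit2 was not. Ifit3 shares 51.2% of its 50-base stretches with Ifit3b and is uncertain. Of the oligoadenylate synthetase relatives Oas2 was called in OL at dpi 10, at least 9.33-fold above the floor, and Oasl2 at dpi 10 and 42 (3.07 and 1.96).

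The guanylate-binding proteins Gbp2 and Gbp3, GTPases that attack pathogen membranes, were called at all times in OL, with a Log2FC of 1.82, 1.99 and 2.51 and of 2.15, 2.21 and 1.60. Isg15, a ubiquitin-like modifier, rose by 3.02, 3.53 and 3.21 in OL, and Usp18, which removes it and restrains the interferon receptor, was called at dpi 2 and 10 (2.45 and 3.38). Isg20, an exonuclease, had 0 counts in naive OL libraries, and its call at dpi 2 rests on 1 library with 0.612 CPM. The RNA sensors Ifih1 and Dhx58 were called in OL at dpi 10 only (1.09 and 2.85). Trim30a was called in OL at all times (2.04, 3.21 and 2.75), Rtp4 at dpi 10 (1.59) and Parp14 at dpi 10 (2.89). Ifi35 was called at dpi 2 and 10 (1.66 and 1.19), whereas Ifi44 was called only in total RNA at dpi 10 (4.15). Lgals3bp, a secreted glycoprotein, was called at all times in total RNA (1.75, 3.33 and 3.07) and had a Log2FC of 0.77, 1.39 and 1.09 in OL without a call.

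Rsad2 and Cmpk2 lie side by side on chromosome 12 (26442746 to 26456452 and 26469204 to 26479837 on mm10) and went different ways in total RNA. Rsad2 (viperin), which makes an antiviral nucleotide, was called higher at dpi 2 and 10 in OL (Log2FC 1.87 and 3.11) and in total RNA (2.21 and 3.13). Cmpk2, a mitochondrial nucleotide kinase, read 41.5, 47.2 and 43.7 CPM in naive total RNA and 21.9, 14.6 and 16.1 at dpi 2, with no overlap. Its Log2FC there was -1.33 ± 0.43 (q = 0.0174), a call that was lost without library 2 or 3 of dpi 2, without dpi 2 tissue pool 2 and with scaling to library sizes alone. In OL it read 6.68, 3.09 and 23.1 CPM in naive tissue, and its Log2FC was -0.74, 0.57 and 0.11, with q of at least 0.199. Its difference between OL and total RNA without naive OL library 3, the highest of these, is given below.

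Comparison of the times with each other singled out few members. From dpi 2 to dpi 10 in OL 5 members were called higher (4.35% of all genes), namely Mx1, Ifit1 (Log2FC 1.86), Irf8 (1.48), Cmpk2 (1.302) and Irf7 (1.20), and Zbp1 was called lower (-1.83; 3.00% of all genes). Library 1 of dpi 2 in OL was the highest of its group for 20 members (29.9% of all genes above the floor there). Without it 12 members were called higher from dpi 2 to dpi 10 in OL. The count was 8 without naive OL library 2 or 3, 3 without dpi 2 library 3 or dpi 10 library 2, and 2 without dpi 2 library 2. From dpi 10 to dpi 42 Irf7 was the member called lower, in OL (-1.07; 1.22% of all genes) and in total RNA (-1.56; 0.0757%), and no member was called higher by edgeR (0.483% and 0% of all genes) or by DESeq2, with 1 in OL and 0 in total RNA higher at an unadjusted p under 0.05. In OL 5 members were called lower without naive library 3 or dpi 42 library 3, and 0 without dpi 10 library 2 or dpi 42 library 1. The total RNA call was lost without any 1 of 5 libraries, namely dpi 10 libraries 2 and 3 and the 3 libraries of dpi 42. In total RNA Irf7 (1.17) and Rtp4 (1.14) were called higher from dpi 2 to dpi 10 (1.07% of all genes), and none was called lower by edgeR (0.967%) or DESeq2, nor at an unadjusted p under 0.05, while neither call was kept without library 2 or 3 of dpi 2 or of dpi 10.

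By libraries alone, 15 members lay higher (2913 of all 17167 genes) and 2 lower (2398 genes) at dpi 10 than at dpi 2 in OL with no overlap, and in total RNA 23 lay higher (19.2% of all genes) and 0 lower (2912 genes). From dpi 10 to dpi 42, 15 lay lower in OL (11.4% of all genes) and 20 in total RNA (12.8%), and none lay higher (9.45% and 14.5%). In total RNA all 34 members had a Log2FC below 0 from dpi 10 to dpi 42, with a median of -0.70. The group mean was highest at dpi 10 for 23 members in OL and 31 in total RNA. In OL it was highest at dpi 2 for Bst2, Ifi27, Ifi27l2a, Ifi35, Irf1 and Zbp1, at dpi 42 for Gbp2, Ifitm3, Isg20 and Samhd1, and in naive tissue for Ifit2.

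OL enrichment, the level in OL against that in total RNA, was compared in each condition. In naive tissue 6 members were called higher in OL than in total RNA at a Log2FC over 0.5 (21.7% of all genes) and 8 lower (28.6%). The enriched members were Xaf1 (2.28 ± 0.19), Ifi27l2a (1.88 ± 0.51), Ifit2 (1.46 ± 0.17), Ifi27 (1.20 ± 0.18), Ifi35 (1.10) and Irf7 (0.83). After SCI 4, 2 and 3 members were called enriched at dpi 2, 10 and 42 (20.5%, 21.2% and 21.1% of all genes), always including Xaf1 and Ifi27, and 13, 13 and 11 depleted (27.2%, 27.3% and 27.0%). All 3 OL libraries lay above all 3 total RNA libraries for 8, 3, 3 and 4 members in naive tissue and at the 3 times (28.8%, 25.2%, 29.2% and 25.6% of all genes) and below for 8, 16, 20 and 18 members (38.1%, 32.1%, 38.4% and 32.7%). Without library 3 of naive OL, 18 members were depleted in naive tissue. The enrichment of Ifi35 at dpi 2 (0.86, q = 0.0491) was lost in most alternatives, 21 single-library omissions among them, mostly of libraries outside this comparison.

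Xaf1, which opposes the apoptosis inhibitor XIAP, read 32.9, 38.1 and 25.5 CPM in naive OL libraries, 32.9, 28.3 and 31.4 at dpi 2, 49.5, 48.5 and 47.7 at dpi 10 and 43.0, 40.1 and 38.7 at dpi 42. In total RNA it read 8.197, 6.29 and 5.36 CPM in naive tissue, 13.6, 10.1 and 9.95 at dpi 2 and 15.5, 17.9 and 17.3 at dpi 10. OL libraries lay above total RNA in every condition, and the rise after SCI was called only in total RNA at dpi 10 (Log2FC 1.35 ± 0.18; OL 0.60 ± 0.18).

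Ifi27, an interferon-induced membrane protein, read 64.8, 65.6 and 52.1 CPM in naive OL libraries, 158, 125 and 91.0 at dpi 2, 133, 131 and 109 at dpi 10 and 125, 96.7 and 92.5 at dpi 42. All SCI libraries were above the naive ones. The Log2FC was 1.04, 1.03 and 0.78 in OL and 1.05, 0.95 and 0.90 in total RNA, and the differences of the changes were -0.02, 0.07 and -0.11 (each ± 0.25, SE). Per length of annotated exon it had the highest level in naive tissue, with a CPM per kilobase of exon of 41.5 in OL and 18.005 in total RNA, followed by Ifit2 in OL (10.5) and Ifitm3 in total RNA (13.4). Its neighbour Ifi27l2a, a related small protein, read 1.76, 2.07 and 2.95 CPM in naive OL libraries and 25.0, 10.2 and 7.50 at dpi 2, with a Log2FC of 2.65, 2.53 and 1.26 in OL and 3.89, 4.21 and 3.13 in total RNA.

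Ifit2 went in opposite directions in the OL translatome and total RNA at dpi 2. Its protein binds RNA through tetratricopeptide repeats, and the gene lies on chromosome 19 at 34550694 to 34576419 (mm10). In OL it read 45.7, 41.1 and 37.3 CPM in naive libraries, 28.1, 16.9 and 22.3 at dpi 2, 39.1, 46.5 and 37.2 at dpi 10 and 26.6, 28.3 and 37.2 at dpi 42. In total RNA it read 16.4, 14.9 and 13.8 CPM in naive libraries, 23.99, 20.7 and 20.7 at dpi 2, 34.3, 34.8 and 30.9 at dpi 10 and 17.9, 19.03 and 22.3 at dpi 42. All OL libraries of dpi 2 lay below the naive OL range, while every SCI library of total RNA lay above the naive one.

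The Log2FC of Ifit2 was -0.88 ± 0.17, -0.02 ± 0.16 and -0.43 ± 0.16 in OL (q = 0.000227, 1 and 0.0497) and 0.54 ± 0.17, 1.15 ± 0.17 and 0.39 ± 0.17 in total RNA. Without library 3 of naive OL the OL value of dpi 2 was -1.01 and was called. The difference of the changes in OL and total RNA (differential OL enrichment, the interaction of the fit) was -1.42 ± 0.23 at dpi 2 (q = 0.000336), -1.17 ± 0.23 at dpi 10 (q = 0.00341) and -0.82 ± 0.23 at dpi 42 (q = 0.0335, not past the limit of 1). OL enrichment of Ifit2 thus went from 1.46 in naive tissue to 0.04, 0.30 and 0.64. The Ifit2 windows held no ISRE letters. Among members called higher in OL at every time, the windows of Irf1, Irf7, Irf8, Irf9 and Isg20 held none. Those of Bst2, Gbp2, Gbp3, Ifitm3, Isg15, Oas1a and Trim30a held them. Among the other members called at no time, Cmpk2, Ifi44, Lgals3bp, Samhd1 and Xaf1 held none, and Stat2 held them. A link of these letters to the changes was not tested.

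Samhd1, a dNTP hydrolase that restricts retroviruses, rose in total RNA and was not called in OL. In OL it read 17.3, 22.5 and 20.3 CPM in naive libraries, 18.9, 22.7 and 23.99 at dpi 2, 23.7, 25.2 and 22.5 at dpi 10 and 27.5, 24.2 and 22.6 at dpi 42. In total RNA it read 14.8, 12.5 and 16.5 CPM in naive libraries, 35.2, 35.3 and 27.7 at dpi 2, 37.9, 47.4 and 41.0 at dpi 10 and 35.1, 26.9 and 38.2 at dpi 42. The lowest SCI library of total RNA was well above the highest naive one, whereas OL libraries overlapped at dpi 2 and lay narrowly above at dpi 10 and 42. The Log2FC was 0.13 ± 0.16, 0.25 ± 0.16 and 0.31 ± 0.16 in OL and 1.16 ± 0.16, 1.53 ± 0.16 and 1.19 ± 0.16 in total RNA. Its differential OL enrichment was -1.04 ± 0.22 (q = 0.00309), -1.28 ± 0.22 (q = 0.000972) and -0.88 ± 0.22 (q = 0.0167) at the 3 times. The call of dpi 2 sits at the limit, with -0.89 without dpi 2 tissue pool 1, -0.94 without naive total RNA library 2 and -0.98 without library 1 or 2 of dpi 2 in total RNA.

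Differential OL enrichment was then counted over the set. At dpi 2, Irf1 and Zbp1 were called higher (3.35% of all genes) and Ifit2 and Samhd1 lower (2.92%), and the calls of Irf1 and Zbp1 were each lost in alternatives given below. At dpi 10, 0 members were called higher by edgeR (1.48% of all genes) and Ifit2 and Samhd1 lower (1.43%). At dpi 42, edgeR called 0 in either direction (1.56% and 1.42%), where 2 were higher and 6 lower at an unadjusted p under 0.05 and DESeq2 called Ifi27l2a lower. At dpi 10, 0 were higher at an unadjusted p under 0.05, and DESeq2 called none higher.

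Irf1 had a differential OL enrichment of 1.404 ± 0.43 at dpi 2 (q = 0.0343), 0.43 ± 0.43 at dpi 10 and 1.15 ± 0.43 at dpi 42. The call of dpi 2 was lost in 14 of the 24 fits that each leave out 1 library. Among these 14 are the fits without each OL library of dpi 10 and 42, which are outside this comparison (1.19 each, q = 0.0724 to 0.0818). Over all 24 fits the value ran from 0.88 (without dpi 2 OL library 3) to 1.67 (without naive OL library 3). The call was also lost without dpi 2 tissue pool 2 (q = 0.0647), with scaling to library sizes alone (q = 0.0555), with a total RNA library as TMM reference (q = 0.0744) and with the compared groups fitted alone (q = 0.113). For Zbp1 the fitted value of dpi 2 (4.21, q = 0.0206) is no bound, because its naive OL libraries were at 0. With OL and total RNA blocked by the tissue pool they share, the q of Zbp1 was 0.0521, its call was also lost by DESeq2 (q = 0.0594), without naive total RNA library 2 or any naive OL library and without the 5 OL libraries high in astrocyte markers, and Ifi27l2a was called lower at dpi 10 (-1.72, q = 0.0334) and dpi 42 (-1.88, q = 0.0219; -1.87 and q = 0.0968 without the block). Xaf1 had -0.82 ± 0.25 at dpi 2 (q = 0.0342), not past the limit. The median over the 34 members was -0.16, -0.30 and -0.15, beside 0.06, 0.08 and 0.04 over all genes, and it was 0.55, 0.34 and 0.49 without library 3 of naive OL.

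**Figure D4:**
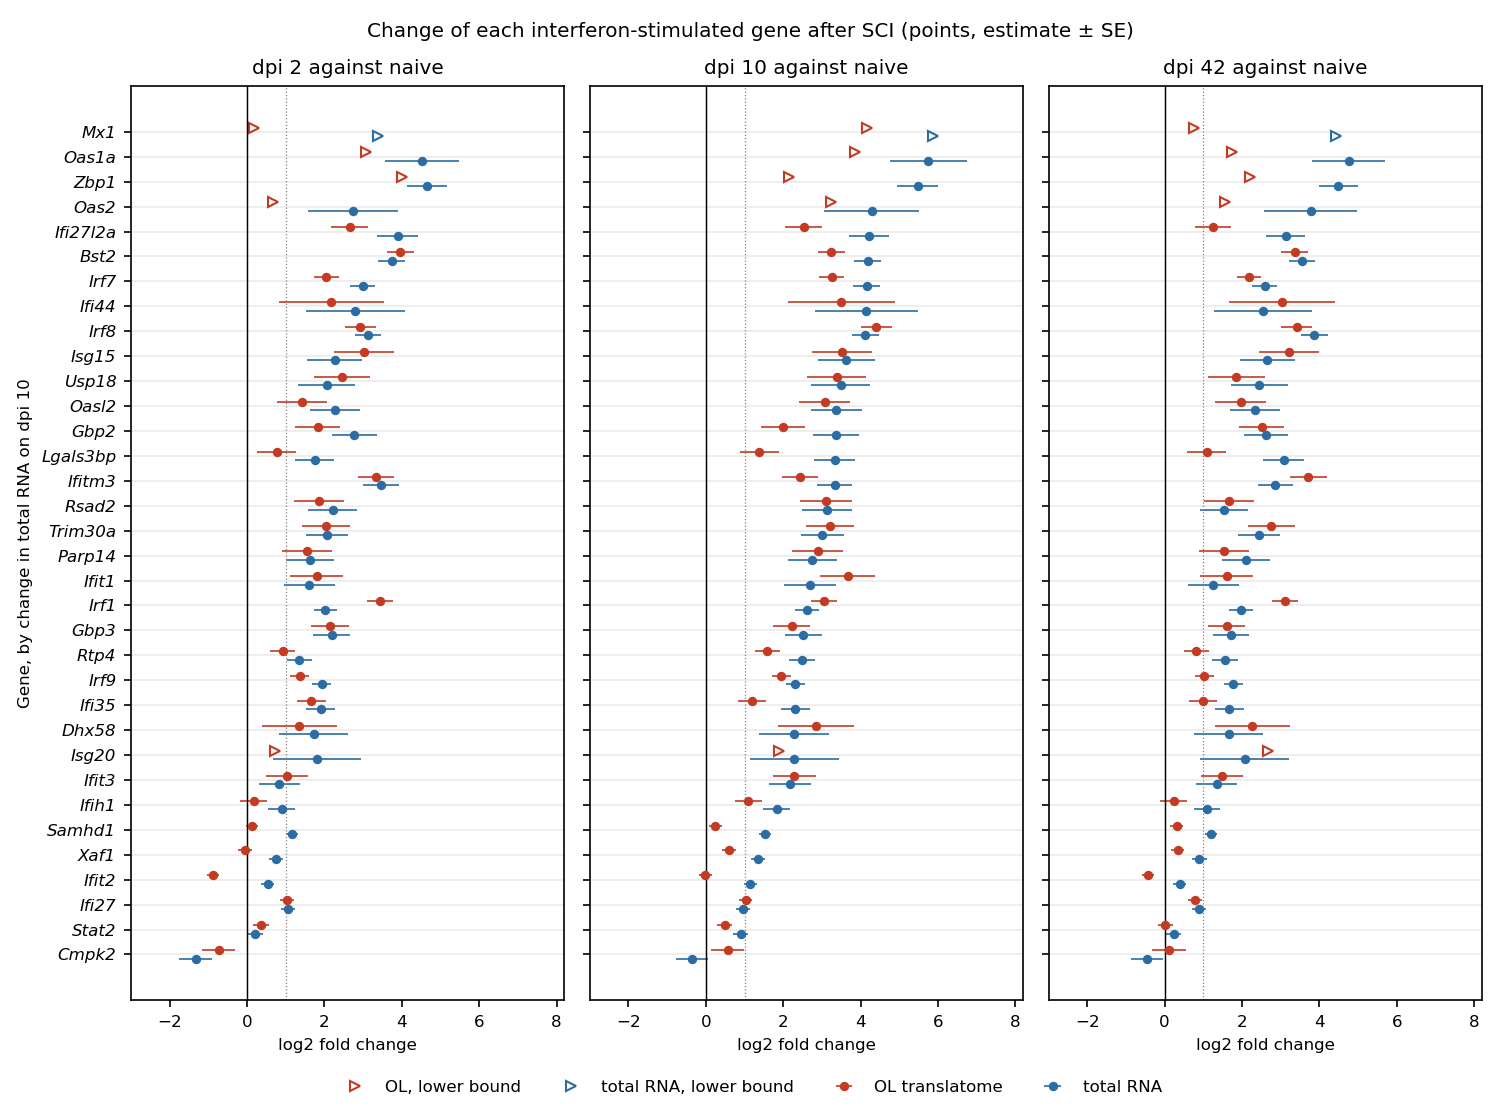
Log2FC against naive tissue with its SE for the 34 ISGs at dpi 2, 10 and 42 in OL (red) and total RNA (blue), genes in the same order in each panel, with a dotted line at 1. Open triangles are lower bounds for genes at the floor in naive libraries, and Ifit2 at dpi 2 is a gene with its OL value below 0 and its total RNA value above 0.

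More members differed between OL and total RNA without library 3 of naive OL. At dpi 2, Ifit2 (-1.70), Samhd1 (-1.24) and Xaf1 (-1.17) were then called lower, and Cmpk2 (1.55), Irf1 (1.67), Parp14 (2.25) and Isg15 (3.29) higher. At dpi 10, Samhd1 (-1.39), Ifit2 (-1.36) and Xaf1 (-1.02) were called lower, and Cmpk2 (1.98), Oasl2 (2.21) and Parp14 (2.55) higher. At dpi 42, Ifit2 (-1.05) and Samhd1 (-1.03) were called lower, and Irf1 (1.48), Cmpk2 (1.57), Ifitm3 (1.93) and Oasl2 (2.10) higher. Ifit2 and Samhd1 were thus called at dpi 2 and 10 with and without that library. Oasl2 read 0.504, 0.465 and 8.03 CPM in the naive OL libraries and 3.51, 5.22 and 6.34 in the total RNA of the same pools, and Lgals3bp read 9.45, 6.73 and 44.3 and 24.8, 28.0 and 31.4. Library 3 stood far above the others in OL for these members, and less so in total RNA.

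The other genes of the interferon pathway were followed in a list of 86, of which 85 are in the table and 74 passed the count limit. None of the 11 interferon ligand genes passed it, with 9 counts of Ifnb1 and 5 of Ifng summed over the 24 libraries and 0 of the other 9. Of the 74 genes 26, 30 and 26 were called higher in OL at dpi 2, 10 and 42 (10.2%, 6.82% and 8.54% of all genes) and 30, 44 and 33 in total RNA (10.0%, 9.20% and 6.66%), and 1 was called lower at dpi 2 in each (6.85% and 6.33%). Other induced genes made up most of the OL calls (17, 21 and 18 of 40), with 2 of 6 receptor genes at each time. None of the 5 kinases and STATs was called in OL by edgeR (10.2%, 6.82% and 8.54% of all genes higher, and 6.85%, 1.26% and 4.08% lower). A list of 5 genes is too short for a difference from these shares to show.

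From each role the gene with the smallest q in OL at dpi 2 is described. Ifngr2, a subunit of the interferon gamma receptor, read 7.31, 5.67 and 7.65 CPM in naive OL libraries and 17.4, 15.2 and 21.04 at dpi 2, without overlap. Its Log2FC was 1.38, 1.21 and 1.17 in OL and 0.37, 0.76 and 0.47 in total RNA, and the differential OL enrichment of dpi 2 was 1.01 ± 0.19 (q = 0.00128). Stat3 had a Log2FC of 0.90, 0.89 and 0.67 in OL, below the limit. All its SCI libraries in OL lay above the naive ones (edgeR q = 6.97e-07, 3.34e-06 and 4.74e-05). Irf5, a factor of inflammatory cytokine genes, had a Log2FC of 2.13, 2.71 and 1.84 in OL. Tlr7, an endosomal RNA sensor, was at least 9.31-fold, 16.1-fold and 13.4-fold higher in OL, though its libraries of dpi 2 overlapped the naive ones.

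Socs3, a feedback inhibitor of cytokine receptors, read 1.13, 0.0423 and 0.268 CPM in naive OL libraries, 67.0, 89.8 and 75.4 at dpi 2, 9.09, 19.7 and 14.3 at dpi 10 and 19.3, 17.8 and 16.7 at dpi 42. It was highest at dpi 2, unlike most ISGs, and all SCI libraries were far above the naive ones. Its Log2FC was 7.33 ± 0.57, 4.90 ± 0.54 and 5.22 ± 0.54 in OL and 4.83, 2.95 and 2.38 in total RNA, and its differential OL enrichment was called at dpi 2 (2.50 ± 0.69, q = 0.0171) and dpi 42 (2.84 ± 0.69, q = 0.0137). Sp100, a nuclear body protein, was at least 10.3-fold, 28.9-fold and 13.2-fold higher in OL and rose by a Log2FC of 2.08, 3.04 and 2.17 in total RNA.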

How the data were processed

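Gene counts of 24 libraries (8 groups, n = 3 pools of 2 mice) were analysed as the authors deposited them, unnormalized and made, per the labels and the study's methods, with FastQC 0.10.1, STAR and HTSeq 0.10.0 on mm10 (GRCm38.p6); the strand setting and the annotation release are not given in the sources used here. Groups were taken from the labels; for 2 libraries of dpi 42 the title and the description name opposite kinds, and the description, which the column names repeat, was used. No column was left out (0 unused).

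Genes with at least 10 counts in all (17167) were fitted with edgeR 4.0.16 (R 4.3.3): TMM scaling, 1 mean per group over all 8 groups, quasi-likelihood tests and Benjamini-Hochberg adjustment over all genes. Calls needed an adjusted p under 0.05 and a Log2FC past 1, or past 0.5 for OL against total RNA. Errors are standard errors of the fit unless given as SD. The p-values measure the spread between pools; replicates are separate pools of animals. The fit was tested on simulated data first. Alternatives were DESeq2 1.42.0, other scalings and filters, groups fitted alone, blocks, and libraries left out, 3 of them chosen after seeing the data.

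OL and total RNA libraries share a tissue pool by design, and same-pool deviations correlated by -0.04 to 0.18, so a fit blocked by pool was run beside the unblocked one. Members and gene lists were chosen with earlier results of these data known. Named with values in each library were the 3 called members with the largest separated change per comparison, members with called differential OL enrichment, the leading OL-enriched members, those most abundant per length in naive tissue, and the transcription factors; Irf1, Oasl2 and Lgals3bp were also described for reasons seen in the data. A fold against libraries at 0 to 3 counts was computed against 3 counts as a lower bound. Promoter windows were read from RefSeq tables.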

Additional observations from a re-analysis of the deposited data

Results flagged for a closer look

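The change after SCI differed between OL and total RNA, by the interaction of the edgeR fit with an adjusted p under 0.05, for 5 members. Ifit2 had a difference in Log2FC of -1.42 at dpi 2, -1.17 at dpi 10 and -0.82 at dpi 42, and Samhd1 of -1.04, -1.28 and -0.88. Xaf1 had -0.82 at dpi 2. In the opposite direction Irf1 had 1.404 and Zbp1 4.21 at dpi 2. Of the 24 fits that each leave out 1 library, 14 lost the Irf1 call and 4 the Zbp1 call. The 14 include the fits without each OL library of dpi 10 and 42, which are outside this comparison. The Zbp1 value rests on naive OL libraries at 0 counts. What lies behind these differences was not tested.

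The Y-linked genes (4 genes), which no comparison used, summed to 97.8 CPM in the OL library and to 77.9 CPM in the total RNA library of dpi 2 tissue pool 2, against at most 0.412 CPM in every other library, although the mice are labelled female. Without this pool 20, 28 and 18 ISGs were called higher in OL at dpi 2, 10 and 42, against 19, 27 and 17 with it.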

How the results depend on the processing

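Of the alternative counts of called members 823 stayed within 1.5 times the reported count and 127 moved; of the alternative values of named members 2260 kept direction and call, 78 lost the call, 16 gained it and 14 changed sign. The cause of the shifts was not tested. Fits without a library hold fewer samples and also estimate the scaling and the spread anew. Libraries outside a comparison could thus move its value. The differential OL enrichment of Irf1 at dpi 2 was 1.19 without any 1 OL library of dpi 10 or 42, against 1.404 with all libraries. Scaling to library sizes alone moved the median of all genes by -0.50 to -0.57 in OL against total RNA.

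DESeq2 called 1 member higher in differential OL enrichment at dpi 2, 1 lower at dpi 42, 3 lower in OL from dpi 10 to dpi 42 and 4 higher in total RNA from dpi 2 to dpi 10. Scaling to library sizes alone gave 0 lower in total RNA at dpi 2, 1 higher in differential enrichment at dpi 2, 13 depleted in naive OL, 2 enriched and 21 depleted at dpi 2, and 3 higher in OL from dpi 2 to dpi 10. With a total RNA library as TMM reference 1 was higher and, at dpi 42, 3 lower in differential enrichment, and 2 were enriched at dpi 2. With no Log2FC limit 2 were lower in differential enrichment at dpi 42, 2 lower in OL from dpi 10 to dpi 42 and 5 higher in total RNA from dpi 2 to dpi 10. The groups compared alone gave 12, 15 and 5 higher in OL, 1 higher in differential enrichment at dpi 2, 2 enriched at dpi 2, 20 depleted at dpi 10, 11 higher in total RNA from dpi 2 to dpi 10 and 9 lower from dpi 10 to dpi 42.

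The replicate block by tissue pool gave 1 higher in differential enrichment at dpi 2 and 1 lower at dpi 42, turned its medians to 0.066 at dpi 2 and 0.037 at dpi 10, took the call from Zbp1 (dpi 2) and Ifi35 (OL enrichment, dpi 2) and gave it to Ifi27l2a. Across conditions the samples share only a number (at most 2 of 3 samples per pair of groups correlated best with their own), and a replicate block by number, without 2 dpi 42 libraries, gave 0 lower from dpi 10 to dpi 42 in OL and 0 in total RNA.

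Without dpi 2 tissue pool 1, 1 was lower in differential enrichment at dpi 2 and 1 at dpi 42, 5 were depleted at dpi 2, 9 higher in OL from dpi 2 to dpi 10 and 3 lower from dpi 10 to dpi 42. Without dpi 2 tissue pool 2, 0 were lower in total RNA at dpi 2, 1 higher in differential enrichment at dpi 2, 2 enriched and 5 depleted at dpi 2, 2 higher in OL and 0 in total RNA from dpi 2 to dpi 10. Without naive tissue pool 3, 26 were higher in OL at dpi 42, 2 and 3 higher in differential enrichment at dpi 10 and 42, 15 depleted in naive OL, 8 higher in OL and 5 in total RNA from dpi 2 to dpi 10, and 3 lower in OL from dpi 10 to dpi 42. Without the 5 OL libraries high in astrocyte markers 5, 3 and 1 were higher in differential enrichment at dpi 2, 10 and 42 and 5 and 2 lower at dpi 10 and 42, 19 depleted in naive OL and 20 at dpi 10, 8 higher in total RNA from dpi 2 to dpi 10 and 3 lower from dpi 10 to dpi 42. The medians of differential enrichment turned positive without naive tissue pool 3 (0.56, 0.13 and 0.85), without those 5 libraries (0.44, 0.18 and 0.32) and without naive OL library 3 (0.55, 0.34 and 0.49).

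With each library left out in turn, members called higher ranged from 14 to 22, 20 to 28 and 11 to 25 in OL and from 19 to 27, 28 to 32 and 18 to 25 in total RNA, with 0 to 1 lower at dpi 2. Differential enrichment ranged from 0 to 4, 0 to 3 and 0 to 4 higher and from 1 to 4, 2 to 3 and 0 to 2 lower, with medians from -0.82 to 0.55, -0.65 to 0.34 and -0.54 to 0.49. Enriched members ranged from 5 to 9, 2 to 4, 2 to 2 and 2 to 3 and depleted ones from 6 to 18, 7 to 16, 9 to 16 and 7 to 12 (naive, dpi 2, 10 and 42). From dpi 2 to dpi 10, 2 to 12 were higher in OL and 0 to 5 in total RNA, and from dpi 10 to dpi 42, 0 to 5 and 0 to 1 were lower. The Stat2 change in OL at dpi 42, 0.02, was -0.11 with a total RNA library as TMM reference, -0.018 without naive tissue pool 3, -0.046 with the block by number and -0.12 to 0.11 with single libraries left out. Members at 0 in naive OL libraries are limited by the floor of 3 counts, so their folds are lower bounds.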
